A study of Ambystoma mexicanum with 15 samples.

Results

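The comparison set 3 arrays of axolotl spinal cord taken 3 days after injury against 3 arrays taken 1 day after injury, with no ivermectin label in either group, and so used 6 of the 15 arrays of the study for its difference. The arrays were chosen by their labels alone, and each of 20035 probe sets was described by its log2 difference, 3 days minus 1 day. The axolotl (Ambystoma mexicanum) is a salamander that rebuilds its spinal cord after injury. All groups came from white axolotls with a labelled age of 1 month, and each array held RNA from a pool of 10 animals. In the injury, a piece of cord was cut out, and the injured area was later collected. The other groups were uninjured cord, cord 7 days after injury, and cord 1 day after injury with ivermectin, a drug that opens ligand-gated chloride channels, injected into the central canal. The protocol describes water as the vehicle of that injection, and the labels do not state whether the 1 day and 3 day animals received it. The labels also do not say how much surrounding tissue was collected.

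In salamanders the cells lining the central canal, called ependymoglia, survive the injury, divide and rebuild the cord as a tube. The first hours to days after a wound bring immediate early transcription factors, inflammatory signals and proteases, and cell division and tissue building follow. A wounded axolotl cord also lies beside skin, muscle, cartilage and blood, so genes of those tissues were listed as well.

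The 6 arrays fell into 2 tight groups. Across probe sets, which are not independent replicates, the correlation between arrays was 0.9979 to 0.9987 within 1 day, 0.998 to 0.9983 within 3 days, and 0.9785 to 0.9801 between the days. The poly-A spike-in, put into each RNA sample ahead of labelling, read 8.08 ± 0.0441 on the log2 scale at 1 day and 8.33 ± 0.0955 at 3 days (SD, n = 3). Its arrays did not overlap (exact permutation test, 2-sided, p = 0.1, the smallest that 3 against 3 arrays allow). Some of the counts that moved by over 1.5 times with it as a covariate are given below. A list count without such a value was not always stable across the alternative settings, as with RNA splicing genes, of which 9 to 16 were higher. The hybridization controls read 10.7 ± 0.169 and 10.8 ± 0.0766 (exact permutation p = 0.8). Among defining markers of cord, GFAP of ependymoglia and astrocytes averaged 10.59 at 1 day and 9.67 at 3 days, TUBB3 of neurons 8.90 and 9.06, and MBP of myelin 11.79 and 12.35. SOX2, SNAP25 and ELAVL3 had no named probe set, and SYT1 lay at or under the lower quartile of the arrays on both days. Skeletal muscle RNA was abundant on both days, with the creatine kinase CKM at 14.28 and 14.41.

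Expression moved broadly in both directions between the days. Of the 20035 probe sets, 8138 (40.6%) differed at an adjusted p under 0.05: 4383 (21.9%) were higher and 3755 (18.7%) were lower at 3 days than at 1 day. The arrays of the days did not overlap for 10034 probe sets (50.1%). At least 2-fold differences ran the other way in number, with 284 (1.42%) higher and 504 (2.52%) lower. In terms of 8639 named genes, each read from its brightest probe set, 3670 (42.5%) differed, of which 1922 (22.2%) were higher and 1748 (20.2%) lower, and 86 (0.995%) and 219 (2.54%) reached 2-fold. For 4531 genes (52.4%) the arrays did not overlap. The shares of 22.2% higher and 20.2% lower are the background for every list count below, except counts given with the poly-A covariate. The 2-fold falls outnumbered the 2-fold rises under every alternative setting that was run, whereas the excess of higher over lower probe sets turned to 3916 higher and 4156 lower with cyclic loess. With the poly-A control as a covariate fewer probe sets differed, 5391 (26.9%), of which 2784 were higher and 2607 lower. A smaller list count with that covariate therefore stands beside fewer calls over all probe sets. Because the arrays measure a tissue, fewer cells of a type and less RNA per cell cannot be told apart in any difference that follows.

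**Figure D1:**
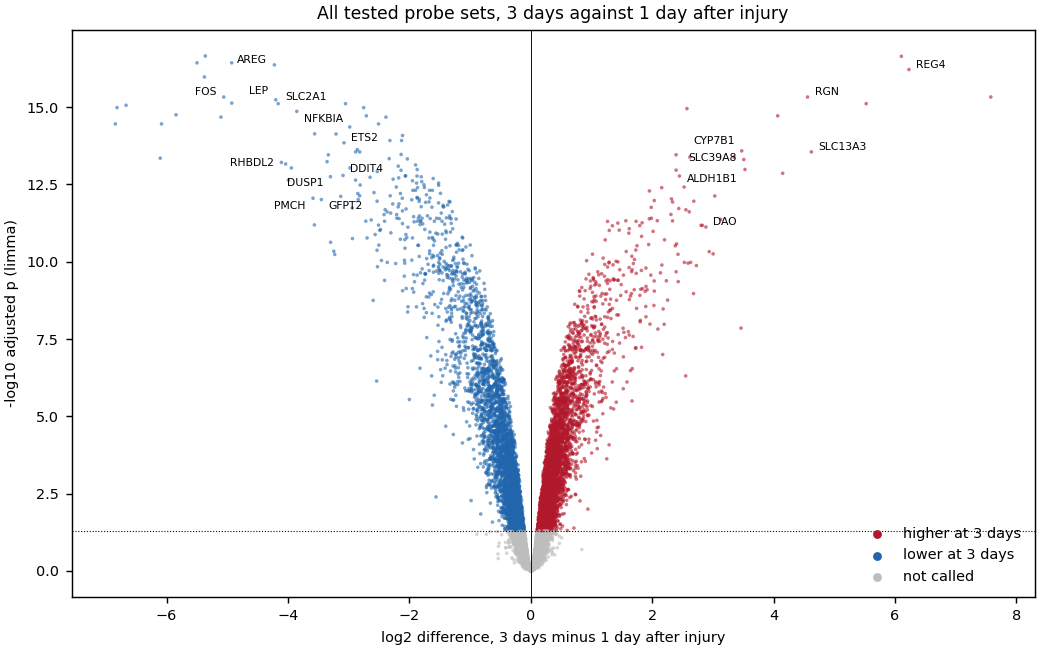
Each point is 1 of 20035 probe sets, with the log2 difference, 3 days minus 1 day after injury, on the x axis and -log10 of the adjusted p from limma on the y axis; the dotted line marks 0.05. Red and blue points passed that threshold, and the symbols name genes among the largest changes, FOS at -5.06 and REG4 at 6.23; the unlabelled extremes include probe sets with no gene name.

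Immediate early genes fell together. These are transcription factors that cells switch on within minutes of a stimulus and off again, and they act on later genes. Of 15 measured members 14 fell and 0 rose, against 20.2% of all genes falling, and the median difference was -1.06 against 0.02 over all genes. FOS (probe set axo10931-f_at), a subunit of the AP-1 factor, read 10.06, 10.09 and 10.03 at 1 day and 4.97, 4.95 and 5.08 at 3 days. It fell by 5.06 ± 0.07 (SE, n = 3 arrays per group, as in all differences) on the log2 scale, or 33.3-fold, with an adjusted p of 4.71e-16 from limma. All 3 day arrays of FOS also lay below the uninjured arrays at 7.35, 7.38 and 7.48, and the 7 day arrays read 6.14, 5.91 and 5.82. JUNB, another AP-1 subunit, read 8.91, 8.84 and 8.88 at 1 day and 6.42, 6.61 and 6.14 at 3 days, a difference of -2.49 ± 0.09. The groups did not overlap for either gene, as for 52.4% of all genes. FOS was named among the largest falls, which were chosen without overlap. KLF2, a Krüppel-like factor, fell by 2.33 ± 0.05 and NR4A1, an orphan nuclear receptor, fell by 2.23 ± 0.10. JUN, the partner of FOS, fell by 1.06 ± 0.07. MYC, a growth-promoting factor, went from 6.48, 6.58 and 6.64 at 1 day to 5.60, 5.52 and 5.59 at 3 days, a difference of -0.99 ± 0.07. Its 1 day arrays already lay below the mean of uninjured cord (7.61). ETS2, an ETS factor that ERK phosphorylates, fell from 8.55, 8.49 and 8.55 to 5.42, 5.44 and 5.49.

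**Figure D2:**
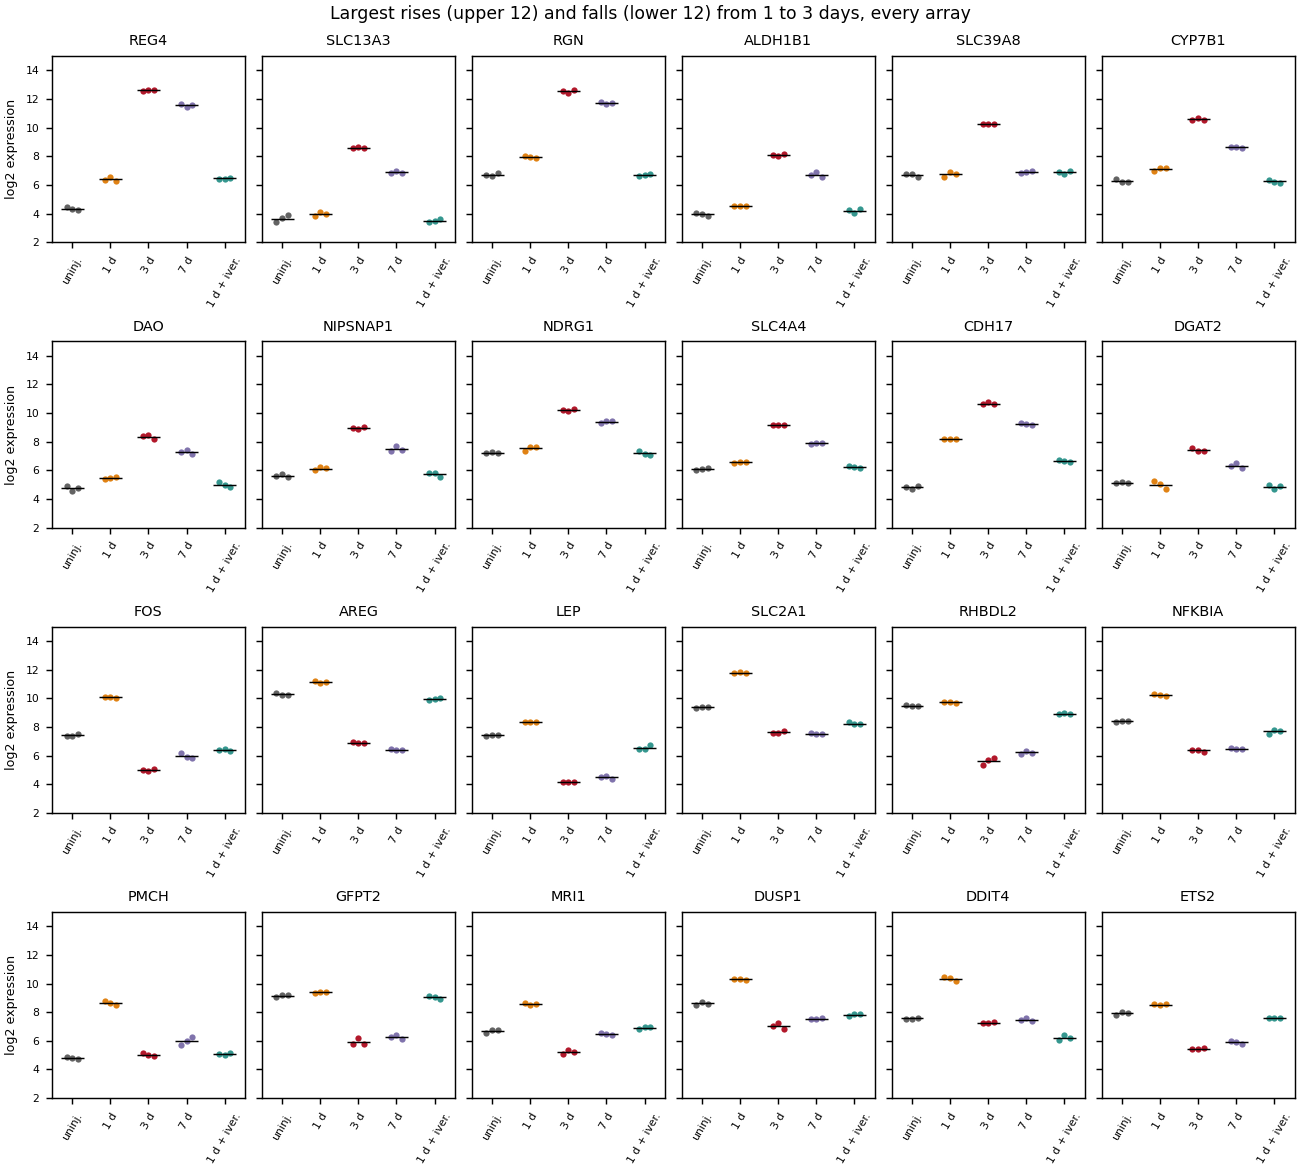
Each panel is 1 gene, with log2 expression on the y axis and every array of the 5 groups as a point; the bar is the mean of 3 arrays. The 24 genes were chosen among those whose 3 day arrays lie apart from the 1 day arrays, so that separation follows from the choice. In the 12 rises the 3 day arrays are the highest of all groups.

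Ligands and feedback genes of the ERK pathway, which carries growth factor signals from the cell surface, fell as a block. Of 15 measured members 13 were lower and 1 was higher, with a median of -0.82. The list did not cover the signalling kinases of the pathway itself. AREG (probe set axo07473-f_at), the EGF receptor ligand amphiregulin, read 11.18, 11.07 and 11.12 at 1 day and 6.93, 6.89 and 6.88 at 3 days. AREG fell by 4.22 ± 0.05, or 18.7-fold, and ended below the uninjured arrays at 10.36, 10.23 and 10.25. RHBDL2, a rhomboid protease that cuts membrane-bound EGF-type ligands, went from 9.73, 9.76 and 9.70 to 5.34, 5.72 and 5.81, a difference of -4.11 ± 0.09. The phosphatases that switch the pathway off fell as well. DUSP1 read 10.32, 10.35 and 10.27 at 1 day and 7.01, 7.23 and 6.79 at 3 days, a difference of -3.30 ± 0.08, and DUSP5, which acts on ERK in the nucleus, fell by 2.82 ± 0.08. The groups overlapped for none of these 4 genes, as for 52.4% of all genes. AREG, RHBDL2 and DUSP1 were named among the largest falls, which were chosen without overlap.

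Inflammatory and NF-kB target genes were lower in 8 of 13 and higher in 0, with a median of -0.69, which was -0.30 when the probe sets of a gene were averaged. NFKBIA, the inhibitor that NF-kB itself induces, fell from 10.28, 10.20 and 10.18 to 6.42, 6.40 and 6.27, a difference of -3.85 ± 0.06 with adjusted p 1.37e-15. PTGS2, the inducible cyclooxygenase of prostaglandin synthesis, fell by 2.54 ± 0.24 to a level at or under the lower quartile of the 3 day arrays, so the size of its fall is not exact. SOCS1, which restrains cytokine receptors, fell by 2.14 ± 0.05. LITAF, a regulator of TNF expression, fell by 1.31 ± 0.07 on its brightest probe set, while its other 2 probe sets passed the threshold in the opposite direction. Interferon response genes were mixed, with 3 of 12 higher and 5 lower. The members that moved most were IRF1, an activating interferon factor that fell by 1.31 ± 0.05, and IRF2, its antagonist, which rose by 0.66 ± 0.06. DTX3L, a ubiquitin ligase, and IFIH1, a sensor of viral RNA, fell, with differences of -0.59 ± 0.08 and -0.46 ± 0.04. Complement and acute phase genes leaned upwards, with 7 of 12 higher, 3 lower and a median of 0.44. CFI, the protease that inactivates complement, rose by 1.20 ± 0.12 from a 1 day level at or under the lower quartile. The late component C7 rose by 0.96 ± 0.07, the central component C3 by 0.78 ± 0.06, and SERPING1, the C1 inhibitor, by 0.62 ± 0.08.

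Apoptosis and p53 target genes were lower in 9 of 20 and higher in 3, with a median of -0.13. GADD45B read 8.14, 8.02 and 8.08 at 1 day and 5.51, 5.36 and 5.48 at 3 days. It is a stress-induced regulator of growth arrest, and the groups differed by -2.63 ± 0.09 without overlap. Its relative GADD45G fell by 1.46 ± 0.05, TP53INP1, a p53-induced stress protein, fell by 1.51 ± 0.08, and BCL2L1, which blocks apoptosis, fell by 1.23 ± 0.05. The members that fell thus include both stress-induced and survival genes.

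Extracellular proteases and their inhibitors were lower in 17 of 25 and higher in 1, with a median of -0.31. MMP2, a gelatinase, read 13.51, 13.53 and 13.47 at 1 day and 10.72, 10.84 and 10.82 at 3 days on its brightest probe set, a difference of -2.71 ± 0.05, while its other probe set passed the threshold in the opposite direction. TIMP1, an inhibitor of metalloproteinases, read 13.68, 13.69 and 13.66 at 1 day and 11.57, 11.59 and 11.52 at 3 days. TIMP1 fell by 2.11 ± 0.04, and the 3 day arrays lay well apart from the 1 day arrays. ADAMTS1, which cuts proteoglycans, fell by 2.02 ± 0.12 and MMP19 fell by 1.56 ± 0.07. MMP9, the other gelatinase, averaged 4.94 at 1 day and 5.01 at 3 days and was not called, with a difference of 0.07 ± 0.14 and an adjusted p of 0.733. Structural matrix genes were lower in 26 of 55 and higher in 10 (6 with the poly-A covariate), with a median of -0.05, or -0.23 with dim probe sets left out. The lubricant proteoglycan PRG4 fell by 1.74 ± 0.08, the corneal proteoglycan KERA fell by 1.32 ± 0.11, the basement membrane chain COL4A5 fell by 1.29 ± 0.06 and the matricellular protein THBS1 fell by 1.22 ± 0.06. Cartilage and bone genes were lower in 14 of 19 and higher in 1, with a median of -0.62. COL2A1, the main collagen of cartilage, read 12.26, 12.30 and 12.25 at 1 day and 10.90, 11.01 and 11.05 at 3 days. ACAN, the cartilage proteoglycan aggrecan, moved the other way, from 9.83 to 9.97 (adjusted p 0.0475), and MATN1 lay at or under the lower quartile on both days. CILP, MATN4 and COL9A1, all cartilage matrix proteins, fell, with differences of -1.26 ± 0.06, -1.11 ± 0.06 and -1.08 ± 0.05. The summed linear level of the measured cartilage and bone genes was 27534 to 27683 on the 1 day arrays and 16227 to 17323 on the 3 day arrays. The part of cartilage content in these falls was not tested.

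**Figure D3:**
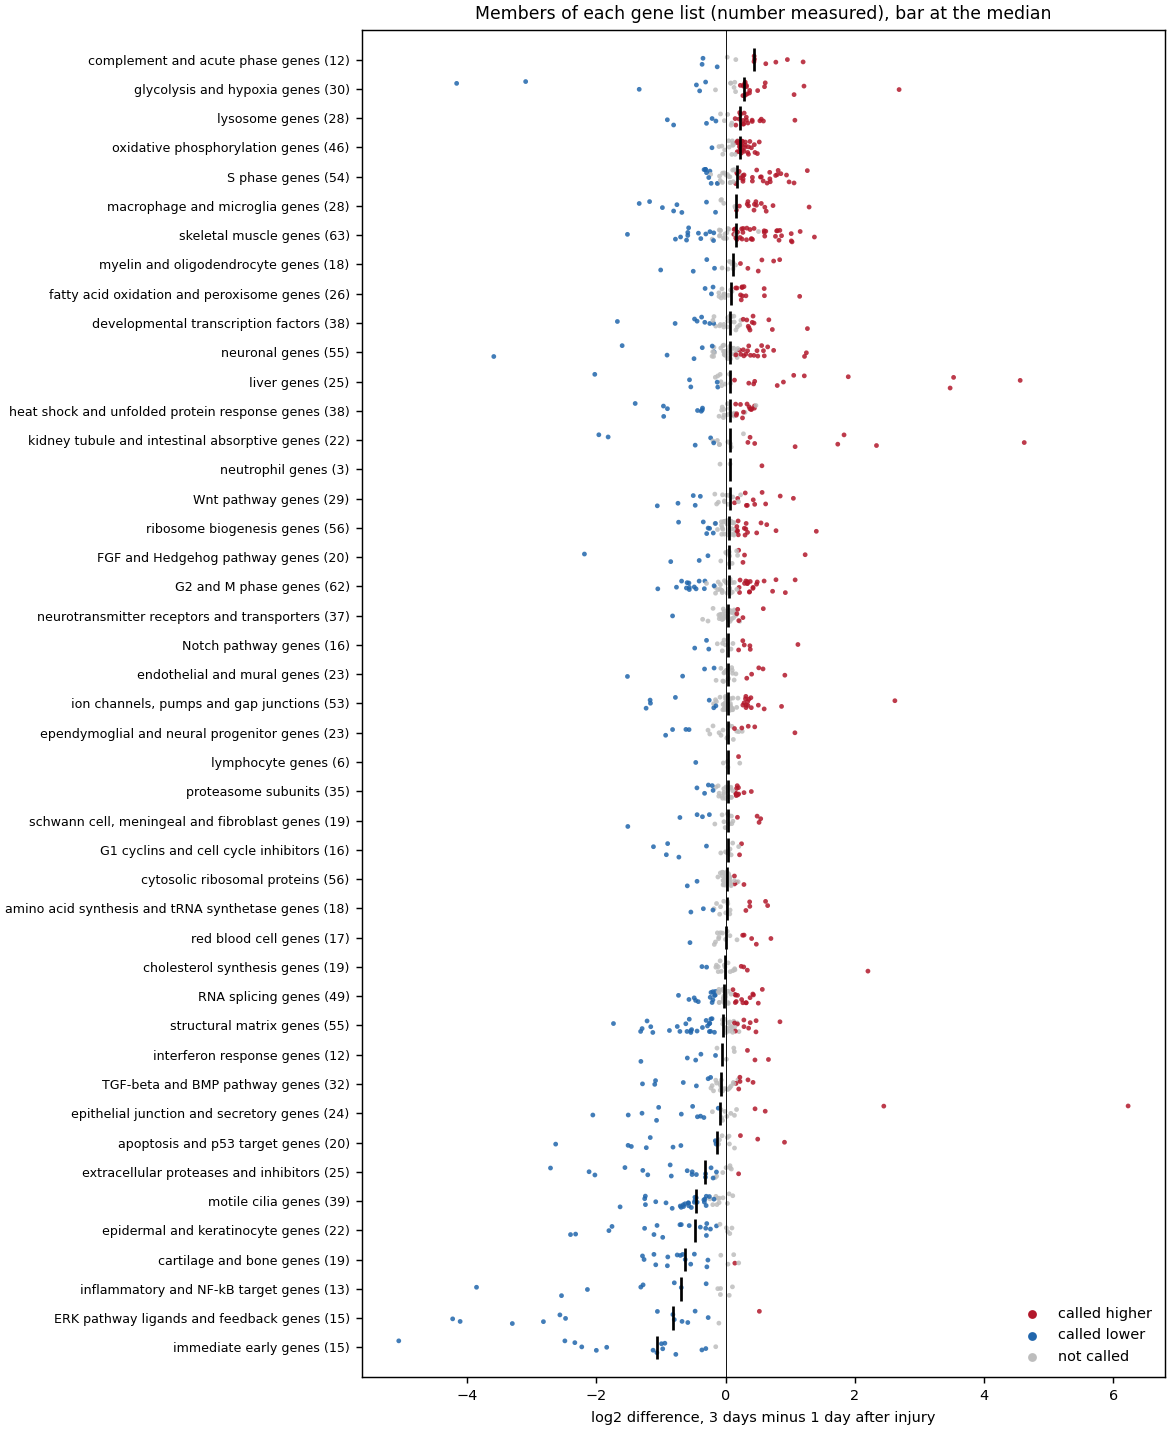
Each row is 1 of 45 gene lists with its number of measured genes, each point a gene, and the x axis its log2 difference, 3 days minus 1 day. The bar marks the median, which runs from -1.06 for immediate early genes to 0.44 for complement and acute phase genes; REG4, SLC13A3 and RGN form the isolated points on the far right.

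Epidermal and keratinocyte genes fell in 17 of 22 and rose in 0, with a median of -0.48. TREX2, a keratinocyte exonuclease, fell by 2.40 ± 0.08 and TGM1, the transglutaminase of the cornified envelope, fell by 2.32 ± 0.05. GRHL3, a factor of epidermal barrier and wound closure, read 9.69, 9.71 and 9.69 at 1 day and 7.92, 7.83 and 7.92 at 3 days. TP63, the master regulator of stratified epithelium, read 6.83, 6.78 and 6.79 and 5.13, 5.25 and 4.76, a difference of -1.76 ± 0.11 with no overlap between days. DSP, the desmosomal protein desmoplakin, was brighter and was not called, at 11.53 and 11.59 (adjusted p 0.354). The epidermal list summed to 23453 to 23793 at 1 day and to 18160 to 18281 at 3 days on the linear scale, and the keratins KRT5 and KRT14 had no named probe set. The part of skin content in these falls was not tested. Motile cilia genes, which build the beating cilia of ependymal and airway cells, fell in 28 of 39 and rose in 0, with a median of -0.45. The axonemal dynein chain gene DNALI1 read 6.39, 6.05 and 6.47 at 1 day and 4.45, 4.89 and 4.67 at 3 days, a difference of -1.63 ± 0.15. TEKT1 and TEKT4, tektins of the ciliary microtubules, fell, with differences of -1.25 ± 0.07 and -1.24 ± 0.07, and the radial spoke gene RSPH9 fell by 1.24 ± 0.11. By the median of its members, the list stood above its uninjured level on all arrays of both days. Its summed linear level, which the brighter members dominate, was 4495 to 4692 at 1 day and 3069 to 3194 at 3 days, the latter below the uninjured 3350 to 3412.

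**Figure D4:**
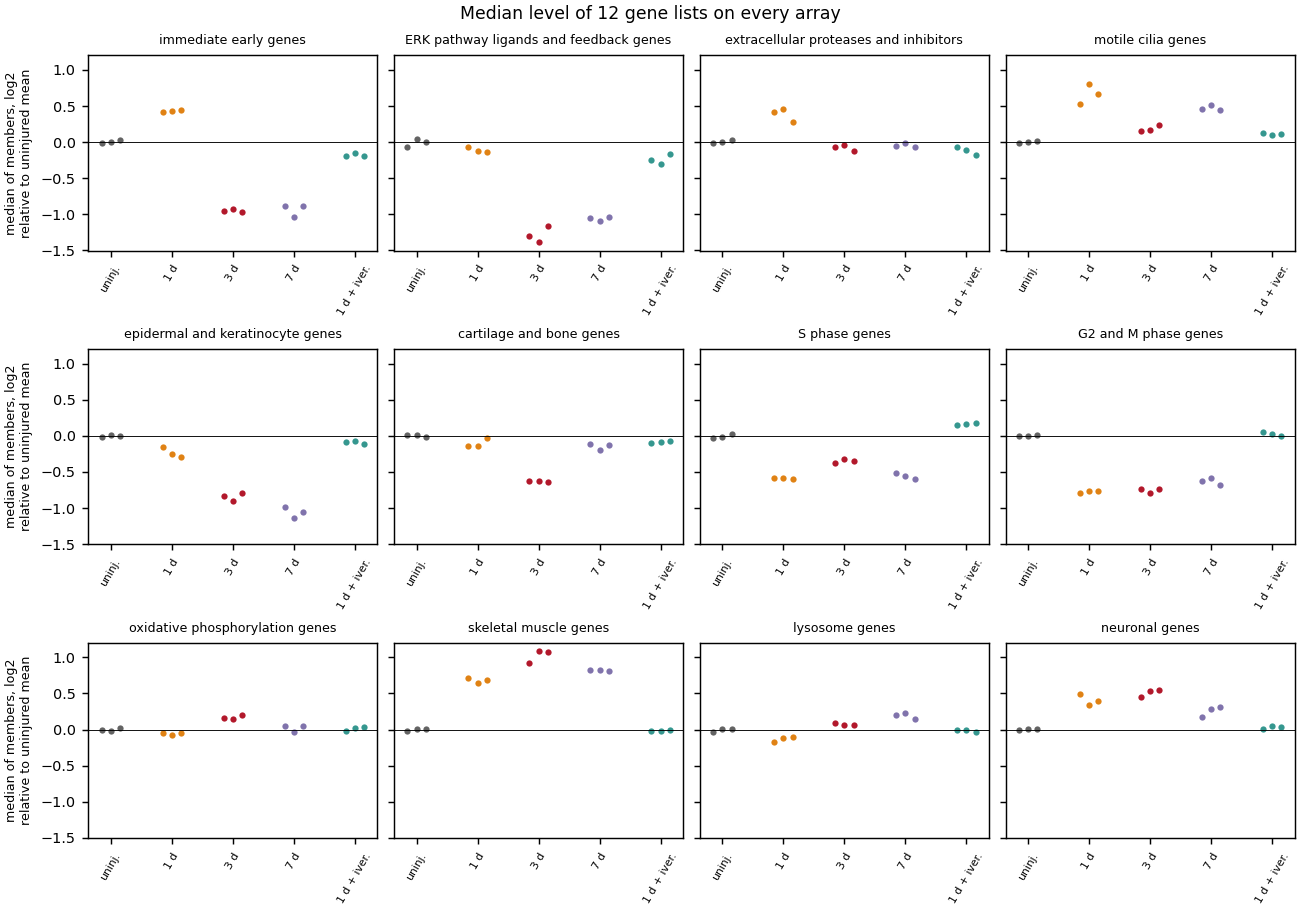
Each panel is 1 gene list and each point 1 array; the y axis is the median over members of log2 expression relative to the uninjured mean. Immediate early genes stand above the uninjured level at 1 day and below it at 3 days. ERK pathway ligands and feedback genes lie slightly below that level at 1 day and drop further at 3 days. Skeletal muscle genes stand highest at 3 days, and G2 and M phase genes lie at a like level on the 1 day and 3 day arrays.

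REG4 (probe set axo06955-r_at), a secreted lectin of the REG family that intestinal cells make, read 6.34, 6.54 and 6.29 at 1 day and 12.59, 12.64 and 12.62 at 3 days. Its rise of 6.23 ± 0.08, or 75-fold with adjusted p 6.10e-17, was the largest of all named genes, and at 7 days it still read 11.62, 11.45 and 11.61. CDH17, an intestinal cadherin, read 8.20, 8.20 and 8.20 and 10.60, 10.75 and 10.60, a rise of 2.45 ± 0.06. Over the whole list of epithelial junction and secretory genes 4 of 24 rose and 11 fell, with a median of -0.09. The tight junction claudins CLDN3 and CLDN7 fell, with differences of -2.05 ± 0.07 and -1.51 ± 0.05.

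The 12 largest rises included RGN, ALDH1B1 and CYP7B1 of the liver list and SLC13A3 of the kidney tubule and intestinal list. These lists held 25 and 22 of the 8639 named genes. They were chosen with earlier results of these data known, so the overlap is not a result about the lists. Of 25 liver genes 12 rose and 5 fell, with a median of only 0.08. RGN, the calcium-binding regucalcin, read 8.03, 7.99 and 7.91 at 1 day and 12.56, 12.44 and 12.60 at 3 days, a rise of 4.56 ± 0.07. ALDH1B1, a mitochondrial aldehyde dehydrogenase, rose by 3.53 ± 0.09. Its 1 day arrays all read 4.554, not far above their lower quartiles of 4.23 to 4.26. CYP7B1, an oxysterol hydroxylase of bile acid synthesis, rose by 3.47 ± 0.07. TAT, which degrades tyrosine, fell by 2.02 ± 0.07. Among kidney and intestinal genes 8 of 22 rose and 5 fell, with a median of 0.07. With dim probe sets left out 4 rose and the median was -0.11. SLC13A3, a sodium-dependent dicarboxylate carrier, read 3.84, 4.12 and 4.005 at 1 day, at or under the lower quartile of those arrays, and 8.60, 8.68 and 8.55 at 3 days. Its difference of 4.62 ± 0.10 is therefore not exact. SLC2A2, a glucose carrier of liver, kidney and gut, rose by 2.33 ± 0.08, and CALB1, a calcium-binding protein of tubules and neurons, by 1.83 ± 0.06. UMOD, a secreted tubule protein, fell by 1.96 ± 0.06. Of the other 17 probe sets with that symbol 13 were lower too, beside 18.7% of all probe sets. Whether these probe sets read the same gene was not tested. Summed linear levels of the list were 12095 to 12198 at 1 day and 8745 to 8921 at 3 days, and those of the liver list were 18533 to 18609 and 27114 to 27902. The brighter members dominate such sums, among them RGN in the liver list at 3 days, which was picked as a large rise. ALB, APOA1, TTR and FGB of liver and SLC5A2, PAX8 and FABP2 of kidney and gut had no named probe set. The intestinal factor CDX2 lay at or under the lower quartile on both days, whereas VIL1, villin of intestinal microvilli, was abundant at 11.34 and 11.15 and fell by 0.18 ± 0.04. LRP2 of proximal tubule went from 3.70, under that quartile, to 4.78, and the tubule and gut receptor CUBN from 7.71 to 7.48.

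SLC39A8, a zinc and manganese importer, read 6.58, 6.87 and 6.79 at 1 day and 10.28, 10.25 and 10.24 at 3 days. By 7 days it was back at 6.84, 6.92 and 6.95, beside uninjured values of 6.73, 6.79 and 6.54. DAO, which oxidizes D-amino acids, rose by 2.88 ± 0.10, NIPSNAP1, a mitochondrial protein, by 2.83 ± 0.10, and DGAT2, the last enzyme of triglyceride synthesis, by 2.43 ± 0.12. SLC4A4, a sodium bicarbonate cotransporter, rose by 2.62 ± 0.06. Among all ion channels, pumps and gap junctions 15 of 53 rose (28.3%) and 7 fell (13.2%), beside 22.2% and 20.2% of all genes. The channels KCNN2 and CACNA1G and the pump subunit ATP1B2 fell, with differences of -1.17 ± 0.11, -1.16 ± 0.09 and -1.23 ± 0.04.

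Glycolysis and hypoxia genes rose in 18 of 30 and fell in 6, with a median of 0.28, yet the 2 largest changes in the list were falls. SLC2A1 (probe set axo12159-f_at), the glucose carrier GLUT1, read 11.73, 11.87 and 11.78 at 1 day and 7.59, 7.56 and 7.74 at 3 days. It fell by 4.16 ± 0.06 and ended below the uninjured arrays at 9.33, 9.42 and 9.41. DDIT4, a stress-induced inhibitor of mTORC1, fell from 10.46, 10.37 and 10.21 to 7.24, 7.22 and 7.30, and the haem-degrading enzyme HMOX1 fell by 1.34 ± 0.04. NDRG1, another hypoxia-responsive gene, moved the other way, from 7.34, 7.62 and 7.62 to 10.22, 10.15 and 10.26, a rise of 2.68 ± 0.08. GFPT2, which starts hexosamine synthesis, fell by 3.45 ± 0.10, and MRI1, an enzyme of methionine salvage, fell by 3.34 ± 0.07. LEP, the hormone leptin, read 8.33, 8.37 and 8.34 at 1 day and 4.16, 4.14 and 4.13 at 3 days, where it was at or under the lower quartile, so the difference of -4.20 ± 0.06 is not exact.

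Oxidative phosphorylation genes rose with little spread: 32 of 46 were higher and 1 was lower, with a median of 0.22 and no member beyond 0.52. UQCRC2, a core subunit of complex III, read 11.58, 11.47 and 11.52 at 1 day and 12.01, 12.10 and 12.03 at 3 days, a rise of 0.52 ± 0.05. NDUFS4, NDUFB11 and NDUFB4, subunits of complex I, rose by 0.49 ± 0.05, 0.45 ± 0.06 and 0.44 ± 0.05. Skeletal muscle genes, whose fibres are rich in mitochondria, rose in 33 of 63 and fell in 13, with a median of 0.16. MYBPH and MYBPC2, myosin-binding proteins, rose by 1.37 ± 0.07 and 1.15 ± 0.06, and the calcium store protein CASQ1 by 1.03 ± 0.05. DES, the muscle filament desmin, fell by 1.52 ± 0.04 on its brightest probe set, with 1 other probe set lower and 1 higher. The muscle list summed to 223365 to 226967 at 1 day and 261741 to 263111 at 3 days on the linear scale. The part of muscle in the mitochondrial rise was not tested. Fatty acid oxidation and peroxisome genes rose in 12 of 26 and fell in 3, with 5 rising when the poly-A control was a covariate. FABP3, the fatty acid carrier of heart and muscle, rose by 1.15 ± 0.08, the thiolases ACAA1 and ACAA2 by 0.60 ± 0.06 and 0.60 ± 0.11, and ACOX2, which oxidizes branched chains and bile acid precursors, fell by 0.32 ± 0.08. Cholesterol synthesis genes had 4 of 19 higher (21.1%) and 2 lower (10.5%), beside 22.2% and 20.2% of all genes. Their median of -0.01 changed sign under 6 alternative settings. INSIG1, which holds sterol sensors in the endoplasmic reticulum, rose by 2.20 ± 0.09, whereas the synthesis enzymes FDPS, SQLE and LSS differed by -0.37 ± 0.06, -0.29 ± 0.07 and 0.34 ± 0.09.

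S phase genes leaned upwards. In the list 27 of 54 rose and 8 fell, with a median of 0.18. MCM3 (probe set axo08153-f_at), a subunit of the replicative helicase, read 8.30, 8.32 and 8.41 at 1 day and 9.58, 9.59 and 9.65 at 3 days, a rise of 1.26 ± 0.06. CDC6, which loads that helicase, rose by 1.06 ± 0.08, UHRF1, a cofactor in copying DNA methylation, by 0.98 ± 0.05, and FEN1, which trims Okazaki fragments, by 0.94 ± 0.06. PCNA, the sliding clamp, read 11.58, 11.58 and 11.63 and 11.78, 11.81 and 11.72, a rise of only 0.17 ± 0.05. The list remained below its uninjured level at 3 days, with a summed linear level of 31463 to 32349 on the uninjured arrays, 20879 to 21557 at 1 day and 24578 to 24783 at 3 days. MCM3 at 3 days averaged 9.61 beside 9.43 in uninjured cord, CDC6 6.73 beside 7.17, FEN1 9.02 beside 9.24 and UHRF1 9.75 beside 10.34.

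G2 and M phase genes split, with 20 of 62 higher (32.3%), 14 lower (22.6%) and a median of 0.05. CCNB1, the mitotic cyclin B1, read 6.40, 6.38 and 6.52 at 1 day and 7.53, 7.38 and 7.62 at 3 days. It rose by 1.08 ± 0.06, the spindle checkpoint gene MAD2L1 by 0.92 ± 0.06 and the CDK subunit CKS1B by 0.78 ± 0.05. The kinesin KIF15, by contrast, read 7.63, 7.72 and 7.76 and 6.55, 6.74 and 6.67, a difference of -1.05 ± 0.09. MKI67, a marker of cycling cells, rose by 0.60 ± 0.07. CCNB1 at 3 days (7.51) and MKI67 at 3 days (9.14) stood beside uninjured means of 8.94 and 8.99. By the median of its members, the G2 and M phase list lay below its uninjured level on all arrays of both days. Its summed linear level was 23534 to 23678 on the uninjured arrays, 13637 to 13876 at 1 day and 13777 to 14469 at 3 days. Among G1 cyclins and cell cycle inhibitors 5 of 16 fell and 2 rose. The antiproliferative genes TOB2 and BTG1 fell, with differences of -1.12 ± 0.09 and -0.92 ± 0.04, the CDK inhibitors CDKN1B and CDKN1C fell by 0.90 ± 0.05 and 0.72 ± 0.08, and cyclin D1, CCND1, rose by 0.25 ± 0.05. The difference between the S phase and the G2 and M phase lists was not tested, and it is given as counts.

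**Figure D5:**
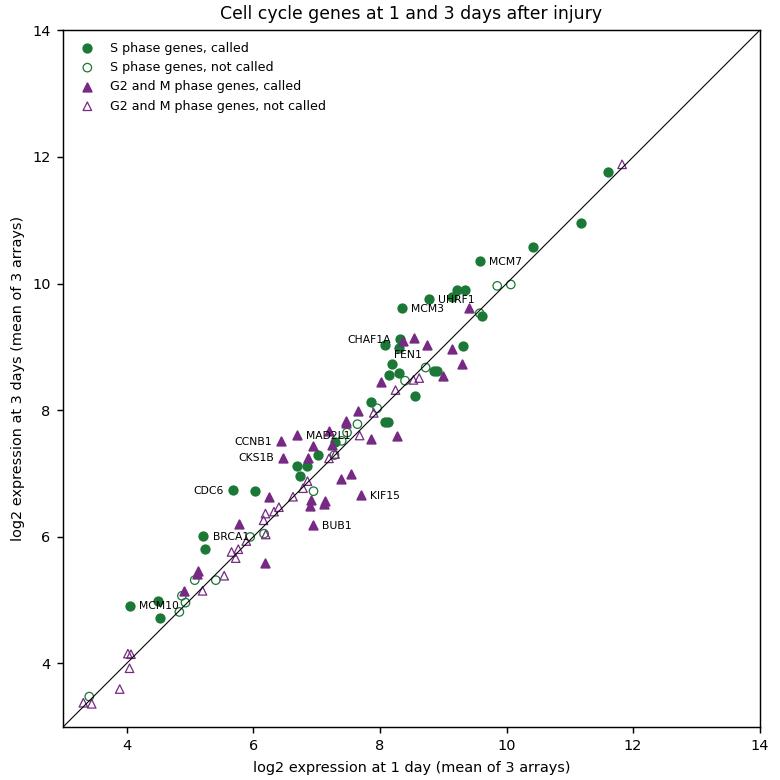
Each point is a cell cycle gene, with its mean log2 expression over 3 arrays at 1 day on the x axis and at 3 days on the y axis; filled points passed the threshold and the line marks equality. Genes of both lists lie on both sides of the line. Of 54 S phase genes 27 were called higher and 8 lower, and of 62 G2 and M phase genes 20 and 14. MCM3, CDC6 and CCNB1 lie above the line and KIF15 below.

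Ependymoglial and neural progenitor genes had 5 of 23 members higher (21.7%) and 4 lower (17.4%), near the shares over all genes (22.2% and 20.2%). That balance turned or tied under 15 settings, with each left-out array counted as 1 setting. GFAP (probe set axo07863-r_at), the glial filament, read 10.61, 10.59 and 10.58 at 1 day and 9.72, 9.66 and 9.61 at 3 days, a difference of -0.93 ± 0.05 that ended below the uninjured values of 9.92, 9.97 and 10.03. SLC1A3, a glutamate carrier of glia, fell by 0.82 ± 0.06 and HOPX, a progenitor cofactor, fell by 0.61 ± 0.09, while CDH2, N-cadherin, rose by 1.07 ± 0.06. VIM, vimentin, differed by -0.10 ± 0.04 and was not called (adjusted p 0.0618), though it was under 5 alternative settings. Neuronal genes rose in 19 of 55 and fell in 7, with 12 rising when the poly-A control was a covariate. PMCH, the precursor of melanin-concentrating hormone, read 8.75, 8.61 and 8.49 at 1 day and 5.12, 5.04 and 4.93 at 3 days. At 3 days it was close to its uninjured values of 4.88, 4.82 and 4.73, and the difference came to -3.59 ± 0.11. PENK, the enkephalin precursor, fell by 1.60 ± 0.07. ELAVL2, a neuronal RNA-binding protein, rose by 1.25 ± 0.07, STMN4, a microtubule regulator, by 1.22 ± 0.07, and GAP43, a growth cone protein, by 0.44 ± 0.09. Of neurotransmitter receptors and transporters 5 of 37 rose (1 with the poly-A covariate) and 1 fell. GABRB2 rose by 0.58 ± 0.13, while GLRA1 rose by 0.27 from a 1 day level at or under the lower quartile. GRM3 was called at 0.20 with means at or under that quartile on both days. Myelin and oligodendrocyte genes rose in 6 of 18 and fell in 4. MBP, myelin basic protein, read 11.76, 11.78 and 11.82 and 12.38, 12.41 and 12.26, a rise of 0.56 ± 0.05. ASPA, an oligodendrocyte enzyme, rose by 0.84 ± 0.05, CNTN1, an axonal contactin, by 0.74 ± 0.08 from a 1 day level at or under the lower quartile, and PMP22, a myelin protein of peripheral nerve, fell by 1.00 ± 0.07.

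Macrophage and microglia genes were divided, with 14 of 28 higher and 8 lower and a median of 0.17; 9 rose with the poly-A covariate. GPNMB, a glycoprotein of phagocytes, read 9.37, 9.31 and 9.36 at 1 day and 10.66, 10.66 and 10.60 at 3 days, a rise of 1.29 ± 0.05. SIGLEC1, a macrophage surface lectin, fell by 1.18 ± 0.09 and SPI1, the PU.1 factor of myeloid cells, fell by 0.98 ± 0.08. Lysosome genes rose in 18 of 28 and fell in 5, with a median of 0.22. LAMP2, a lysosomal membrane protein, rose by 1.07 ± 0.07 and the cathepsin CTSZ by 0.59 ± 0.06, whereas CTSH and CTSK fell, with differences of -0.90 ± 0.12 and -0.80 ± 0.07. The macrophage list summed to 21990 to 22618 at 1 day and 26121 to 26489 at 3 days, and the part of macrophage number in the lysosomal rise was not tested. Of the macrophage markers CD68 rose by 0.35 ± 0.12, CSF1R was not called (-0.07 ± 0.06, adjusted p 0.370 from limma) and MPEG1 had no named probe set. Neutrophil and lymphocyte genes were too few to describe as groups, with 3 and 6 measured; ALOX5 and CD247 rose by 0.56 ± 0.05 and 0.20 ± 0.06, and BLNK fell by 0.46 ± 0.05. Red blood cell genes had 5 of 17 higher and 1 lower, with a median near 0 whose sign changed under 6 alternative settings. The markers ALAS2 (10.39 at 1 day and 10.31 at 3 days) and SLC4A1 (4.56 on both days) were not called (adjusted p 0.284 and 0.996 from limma). HBA1 and HBB had no named probe set. The erythroid factor NFE2 rose by 0.70 ± 0.06, the cytoskeletal ankyrin ANK1 by 0.48 ± 0.10 from a similarly dim 1 day level and the membrane protein RHAG by 0.40 ± 0.05, while FECH, which inserts iron into haem, fell by 0.55 ± 0.06. Among endothelial and mural genes 5 of 23 rose (21.7%) and 4 fell (17.4%), near the shares over all genes (22.2% and 20.2%). The smooth muscle gene TAGLN rose by 0.92 ± 0.06 and LYVE1 by 0.58 ± 0.06, while ETS1 fell by 0.67. Of the endothelial markers PECAM1 rose by 0.40 ± 0.09, while CDH5 and KDR were not called (adjusted p 0.622 and 0.255 from limma). In the Schwann cell, meningeal and fibroblast list 4 of 19 rose (21.1%) and 5 fell (26.3%), also near the shares over all genes. NGFR, the low-affinity neurotrophin receptor, fell by 1.51 ± 0.11 and COL1A2, a chain of type I collagen, fell by 0.71 ± 0.05. FAP, a fibroblast protease, and OSR1, a mesenchymal factor, rose by 0.54 ± 0.11 and 0.52 ± 0.09.

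Wnt pathway genes rose in 11 of 29 (6 with the poly-A covariate) and fell in 5. The ligand WNT2B rose by 1.05 ± 0.07 and the receptor FZD8 by 0.85 ± 0.11, while the nuclear factors LEF1 and TCF7L1 fell, with differences of -1.06 ± 0.14 and -0.74 ± 0.11, LEF1 to a level at or under the lower quartile. The Notch ligand JAG1 read 6.56, 6.66 and 6.62 at 1 day and 7.67, 7.72 and 7.80 at 3 days, a rise of 1.12 ± 0.05. In that pathway 6 of 16 rose and 3 fell. JAG2 and DLL1, further ligands, rose by 0.38 ± 0.09 and 0.38 ± 0.07, and the target HES1 fell by 0.48 ± 0.08. TGF-beta and BMP pathway genes had 6 of 32 higher (2 with the poly-A covariate) and 7 lower, or 18.8% and 21.9% beside 22.2% and 20.2% of all genes. That balance turned or tied under 4 settings. TGIF1, a repressor of the pathway, fell by 1.29 ± 0.06, the ligand BMP2 fell by 1.10 ± 0.09, and the targets ID2 and ID3 fell by 1.08 ± 0.08 and 0.65 ± 0.08. In the FGF and Hedgehog list 4 of 20 rose and 4 fell, or 20% each way, again near the shares over all genes. FGFBP1, which releases FGFs from matrix, fell by 2.18 ± 0.07 and the ligand FGF2 fell by 0.85 ± 0.09. The receptors went opposite ways, FGFR3 with a rise of 1.23 ± 0.09 and FGFR2 with a difference of -0.41 ± 0.06. Developmental transcription factors rose in 11 of 38 (28.9%) and fell in 8 (21.1%), beside 22.2% and 20.2% of all genes. HOXA13 rose by 1.27 ± 0.06 and MEIS2 by 0.72 ± 0.04, the latter with probe sets in both directions, while SALL4, a factor of undifferentiated cells, fell by 1.67 ± 0.08 and HOXC13 fell by 0.78 ± 0.14.

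Heat shock and unfolded protein response genes rose in 14 of 38 and fell in 8, and the large changes were falls: DDIT3, the stress factor CHOP, fell by 1.40 ± 0.05, HSP90AA1 fell by 0.96 ± 0.06, HERPUD1 fell by 0.96 ± 0.07 and HSPB1 fell by 0.90 ± 0.05. HSPA5, the chaperone BiP, read 10.01, 10.05 and 10.16 and 10.36, 10.34 and 10.43, without overlap, and was not called (adjusted p 0.203), though it was under 3 alternative settings. Ribosome biogenesis genes rose in 16 of 56 (28.6%) and fell in 7 (12.5%), with 7 rising under the poly-A covariate. EXOSC2, an exosome subunit, read 6.35, 6.53 and 6.52 at 1 day and 7.91, 7.82 and 7.89 at 3 days, a rise of 1.40 ± 0.06. ILF2 and NOLC1 rose by 0.78 ± 0.05 and 0.64 ± 0.06, and RRS1 fell by 0.73 ± 0.08. Cytosolic ribosomal proteins ranged from -0.59 to 0.28, with 4 of 56 higher and 2 lower; RPL34 and RPL28 fell, with differences of -0.59 ± 0.06 and -0.44 ± 0.08, and RPS29 and RPL21 rose by 0.28 ± 0.05 and 0.17 ± 0.05. Of 35 proteasome subunits 11 rose (31.4%) and 5 fell (14.3%), or 3 in each direction with the poly-A covariate. PSME4 and PSME3 rose by 0.40 ± 0.11 and 0.28 ± 0.04, and PSME2 and PSMA6 fell, with differences of -0.44 ± 0.05 and -0.33 ± 0.04. Amino acid synthesis and tRNA synthetase genes had 5 of 18 higher (27.8%) and 3 lower (16.7%), near the shares over all genes (22.2% and 20.2%). CTH, PSAT1 and the cystine carrier SLC7A11 rose by 0.65 ± 0.13, 0.62 ± 0.05 and 0.37 ± 0.06, and the glutamine carrier SLC1A5 fell by 0.54 ± 0.09. RNA splicing genes split evenly, with 15 of 49 higher (30.6%) and 13 lower (26.5%), a balance that turned or tied under 11 settings. The splicing kinases CLK2 and CLK4 rose by 0.51 ± 0.06 and 0.57 ± 0.11, and HNRNPD and HNRNPH3 fell, with differences of -0.57 ± 0.06 and -0.73 ± 0.06.

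The genes that changed most between 1 and 3 days were then read on arrays that did not enter that difference, 7 days after injury against uninjured. Those arrays did enter the pooled spread and the choice of each gene's brightest probe set. Of the 86 genes at least 2-fold higher at 3 days, 75 (87.2%) were higher at 7 days than in uninjured cord and 9 (10.5%) were lower, with a median of 1.38. Over all 8639 genes 2685 (31.1%) were higher and 2522 (29.2%) lower in that comparison, with a median of 0.01. Of the 219 genes at least 2-fold lower at 3 days, 180 (82.2%) were lower at 7 days than in uninjured cord and 25 (11.4%) were higher, with a median of -0.97. The shared genes made up 2.79% of all genes higher and 7.14% of all genes lower at 7 days. Poly-A control RNA also differed between these groups, at 7.504 to 7.555 on the uninjured arrays and 7.807 to 8.086 on the 7 day arrays, and its part was not tested. At 7 days 69 of the 86 and 140 of the 219 lay between their 1 day and 3 day means. A further 14 and 73 lay past the 3 day mean, and 3 and 6 past the 1 day mean. Over all 8639 genes 2724 lay between these means, which is not a like background. The 86 and 219 were chosen for a wide gap between the same means, and a 7 day mean falls inside a wide gap more readily. Whether the genes were moving back towards their 1 day levels was therefore not tested.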

How the data were processed

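Total RNA of axolotl spinal cord was measured on 15 Affymetrix custom axolotl arrays, 3 for each of 5 groups, with Trizol extraction, biotin labelling and 10 animals pooled for each array, per the labels' protocols. The deposited values are log2 expression per probe set, which the authors made with RMA in Affymetrix Expression Console, per the submitters' processing notes. Whether all arrays were normalized together is not given in the sources used here. Arrays give no read depth, and precision rests on the number of arrays.

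The file held 20080 probe sets, and its 45 Affymetrix controls were left out. Symbols came from the platform annotation for 10951 probe sets of 8639 genes, and 9084 probe sets had none. Of 1740 genes with several probe sets, the brightest over all arrays stood for the gene. Group means over the 15 arrays were estimated in limma 3.58.1 (lmFit, eBayes; R 4.3.3), which pools the spread of all 5 groups, and p-values of the difference (2-sided) were adjusted by Benjamini and Hochberg's method across 20035 probe sets, with a threshold of 0.05. The replicates are pools, so p-values measure the spread between pools. The code was tested on simulated data. Levels are unfiltered, and a mean at or under the lower quartile (25%) of its arrays may be background.

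Named genes are the 12 largest rises and 12 largest falls past the threshold without overlap, up to 4 members of each list, and a fixed panel of genes. Members, the 45 lists and this rule were chosen with earlier results of these data known. A list is described by its counts and median, with no test. Same-numbered arrays of 1 day and 3 days had residual correlations of -0.0051 to 0.049 and were not paired. There were 13 alternatives, and leaving out each array in turn was 1 of them. Where settings are counted, each left-out array counts as 1 setting. A balance of higher and lower members counts as turned also when it became a tie. Figures were drawn with matplotlib.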

Additional observations from a re-analysis of the deposited data

How the results depend on the processing

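Counts of probe sets kept within 1.5 times of their values under most of the 13 alternatives. With the poly-A control as a covariate, 2784 probe sets were higher. With 1 probe set per named gene, which tests fewer features, 1981 were higher and 1790 lower, 86 and 219 of them by 2-fold. With a gene's probe sets averaged these were 1895, 1807, 75 and 195. With the replicate block, 4269 were higher and 3677 lower, and the arrays share only a number. Leaving out each array in turn gave 3814 to 3938 higher and 3368 to 3515 lower. At an adjusted p under 0.01, 3149 were higher and 2923 lower. Of the 189 genes named, 186 passed the threshold. The poly-A covariate ended the call of 10 of them (ACAA2, ACOX2, CTH, GAP43, GLRA1, GRM3, JAG2, LSS, PCNA and RPL21) and called HSPA5, at 0.75 (adjusted p = 0.0257). HSPA5 was also called in the fit of the 6 arrays alone and after quantile normalization over them. VIM was called with an intensity trend, with array weights, with cyclic loess, with dim probe sets left out and with 1 probe set per gene. Under no setting run did a called gene change direction. Each other setting ended 0 to 4 of the calls, the replicate block 1. The cause was not tested. Among lists with small counts, leaving out 1 array (1 day replicate 1, 2 or 3 day replicate 2) left 3 ependymoglial genes higher instead of 5, and leaving out 1 day replicate 3 or 3 day replicate 1 left 2 receptor and transporter genes higher instead of 5 (1 with the poly-A covariate or at an adjusted p under 0.01).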

Other observations

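Some of the largest differences were at probe sets with no gene name. Of 9084 such probe sets, 2126 were higher and 1573 lower at 3 days, 169 and 234 of them by at least 2-fold. The largest were axo31384-f_s_at with 7.58 ± 0.11 (log2 difference ± SE, n = 3 arrays per group) and axo21687-r_at with 6.10 ± 0.06, both higher at 3 days. On the lower side stood axo08183-f_at with -6.84 ± 0.12 and axo08180-f_at with -6.82 ± 0.11. The lower of the 2 means of axo31384-f_s_at (3.17), axo21687-r_at (4.06) and axo08183-f_at (4.24) lay at or near the lower quartile of the arrays, so their differences are not exact. These 4 were chosen after their values were seen.

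Probe sets that carry the same symbol did not always move together. Among 419 genes with at least 2 called probe sets, 326 had all of them in the same direction and 93 had calls in both directions.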
